A study of Homo sapiens with 6 samples.

Results

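The aldo-keto reductases (AKR) measured here were 8 genes of 34957 in the tables, AKR1A1, AKR1B1, AKR1B10, AKR1C1, AKR1C2, AKR1C3, AKR1C4 and AKR7A2. They were listed by name, but with earlier results of these data known. They carried 67 of 180253 listed transcripts. The RNA came from A549, an established human lung adenocarcinoma cell line, collected 48 h after transfection with Lipofectamine 3000, and was measured by short-read sequencing. The 3 groups were a negative control siRNA (si-ctrl) and 2 different siRNAs against the long noncoding RNA PLANE (si-PLANE.1 and si-PLANE.2). Each group had 2 libraries. The study's text calls them experimental repeats and the labels do not say whether they came from separate cultures, so the p-values measure the spread between these libraries, which may be technical. PLANE itself was not analysed here, so the values hold no check of its knockdown. In bulk RNA a lower level can come from fewer cells or from less RNA per cell, and these cannot be told apart.

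Aldo-keto reductases use NADPH to reduce aldehydes and ketones to alcohols. AKR1A1 is the general aldehyde reductase, AKR1B1 is aldose reductase, which turns glucose into sorbitol in the polyol pathway, and AKR1B10 reduces retinal and lipid aldehydes and is known for high expression in smoking-related lung cancers. AKR1C1 to AKR1C4 are hydroxysteroid dehydrogenases, of which AKR1C1 inactivates progesterone, AKR1C2 inactivates dihydrotestosterone, AKR1C3 makes testosterone and prostaglandin F, and AKR1C4 is mainly a liver enzyme. AKR7A2 reduces succinic semialdehyde and aflatoxin dialdehyde. Several of these genes are known targets of NRF2 (NFE2L2), the transcription factor of the antioxidant response, which is constitutively active in A549 cells because its inhibitor KEAP1 is impaired.

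Expected counts, which are estimates of the reads that came from each transcript, summed to between 10572151 and 20778431 per library. Both libraries of si-PLANE.2 were unlike the remaining 4. The correlation of gene log2(FPKM + 1) across genes was 0.991 between the si-PLANE.2 libraries, 0.963 to 0.973 among the other libraries and 0.854 to 0.876 between these sets. The median of 38 histone genes, whose mRNAs mostly lack a poly(A) tail, was 95.4 and 101 FPKM in si-ctrl, 58.2 and 68.6 in si-PLANE.1, and 0.525 and 0.655 in si-PLANE.2. In the count test used below, 3 of 7 epithelial markers were higher and 3 lower with si-PLANE.2, beside 31.8% and 32.3% of all genes. In FPKM KRT7 overlapped between si-ctrl (1098 and 1252) and si-PLANE.2 (1053 and 1136). The keratins KRT8, KRT18 and KRT7 were at 1053 to 5823 FPKM and KRT19 at 0.76 to 5.38 in the 6 libraries, while CDH1 (36.5 and 35.4 in si-PLANE.2 against 130 to 160 in the others), EPCAM (2.59 and 2.70 against 14.8 to 26.5) and MUC1 (3.28 and 3.04 against 9.33 to 32.1) stood lower in si-PLANE.2. The 7 blood and stromal markers in the tables summed to 7.58 and 8.58 FPKM in si-ctrl, and 13.6 and 11.8 in si-PLANE.1, and were lower in both si-PLANE.2 libraries (3.63 in replicate 3), mostly COL1A1 (3.29 to 13.1), with PTPRC and CD3E at 0.02 or less. These differences move with each si-PLANE.2 result below, and their part in it was not tested.

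The AKR1C genes are near copies of each other, which limits how reads can be divided among them. The 4 genes lie side by side on chromosome 10 in GRCh37, AKR1C1 at chr10:5005445-5025475, AKR1C2 at chr10:5029967-5060223 on the minus strand, AKR1C3 at chr10:5077546-5149878 and AKR1C4 at chr10:5237425-5260912. Over 972 coding bases (stop codon included) of the reference transcripts, AKR1C1 and AKR1C2 differed at 19 positions, an identity of 98.0%, and their longest identical run was 189 bases. AKR1C3 was 91.5% identical to AKR1C1 and 91.0% identical to AKR1C2, and AKR1C4 was 87.8% to 88.5% identical to the other AKR1C genes. Of the 823 windows of 150 bases in the AKR1C1 coding sequence, 41 were also in AKR1C2 and 0 in AKR1C3 or AKR1C4. AKR1C2 and AKR1C3 had 22 of 823 windows in common and a longest identical run of 171 bases. Over all annotated transcripts, untranslated bases included, more was shared between AKR1C1 and AKR1C2. There 7.5% of the distinct windows of AKR1C1, 10.9% of AKR1C2, 0.508% of AKR1C3 and 0% of AKR1C4 were also in another gene of the family. Coding bases 43 to 162, counted from the A of the start codon, were the 120-base stretch in which AKR1C1 and AKR1C2 differed most, with 10 differences. They are shown because reads across such a stretch are those that can tell the genes apart. Capitals mark bases of AKR1C1 that differ from AKR1C2, and in the other genes bases that differ from AKR1C1.
AKR1C1: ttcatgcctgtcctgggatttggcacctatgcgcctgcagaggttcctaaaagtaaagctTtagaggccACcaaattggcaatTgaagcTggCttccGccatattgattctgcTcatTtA
AKR1C2: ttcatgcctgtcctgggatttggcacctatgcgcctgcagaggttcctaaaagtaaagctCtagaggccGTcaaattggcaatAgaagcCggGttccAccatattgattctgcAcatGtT
AKR1C3: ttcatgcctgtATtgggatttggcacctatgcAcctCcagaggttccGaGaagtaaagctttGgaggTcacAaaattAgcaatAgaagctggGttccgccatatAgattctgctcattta
AKR1C4: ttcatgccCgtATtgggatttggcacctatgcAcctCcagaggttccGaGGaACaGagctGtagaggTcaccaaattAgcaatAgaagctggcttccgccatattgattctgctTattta

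AKR1B1 (chr7:134127108-134144036, minus strand) and AKR1B10 (chr7:134212319-134226164) are also neighbours but less alike. Their coding sequences were 76.1% identical, with a longest identical run of 22 bases and 0 of 802 windows of 150 bases in common. AKR1B15, the gene next to AKR1B10, was 85.9% identical to AKR1B10 and likewise shared 0 windows, at 9.03 to 15.6 FPKM in the 6 libraries. Coding bases 718 to 837 of AKR1B10 and AKR1B1 are the 120-base stretch in which these genes were most alike, with 17 differences in capitals, shown because even there the genes are told apart at many bases.
AKR1B10: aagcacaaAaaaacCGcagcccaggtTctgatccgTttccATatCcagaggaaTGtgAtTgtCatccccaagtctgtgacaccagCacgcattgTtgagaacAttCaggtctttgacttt
AKR1B1: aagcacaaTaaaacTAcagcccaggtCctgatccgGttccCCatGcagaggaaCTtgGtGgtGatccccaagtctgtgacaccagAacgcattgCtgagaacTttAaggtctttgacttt

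AKR1A1 (chr1:46016215-46035721) and AKR7A2 (chr1:19630459-19638638, minus strand) shared no window of 150 bases with any other member.

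Levels are given as gene FPKM, the sum of the deposited FPKM of a gene's transcripts, which corrects for transcript length and depth. AKR1C2 was the most abundant member in si-ctrl, at 1670.0 and 1649 FPKM, and stood 44th of all genes by mean FPKM. AKR1B10 followed at 1444 and 1472 FPKM and AKR1C3 at 974 and 938. AKR1C1 was at 286 and 324 FPKM and AKR1B1 at 229 and 179. The general aldehyde reductase AKR1A1 was at 53.0 and 44.8 FPKM and AKR7A2 at 22.7 and 24.9. The liver gene AKR1C4 was at 2.18 FPKM in 1 library, from 28 counts, and listed at 0 in the other, where a count of 0 allows up to 3 counts. No neighbours in this order overlapped in si-ctrl. The plot of levels by library shows a range of about 3 orders of magnitude among the 8 genes.

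**Figure D1:**
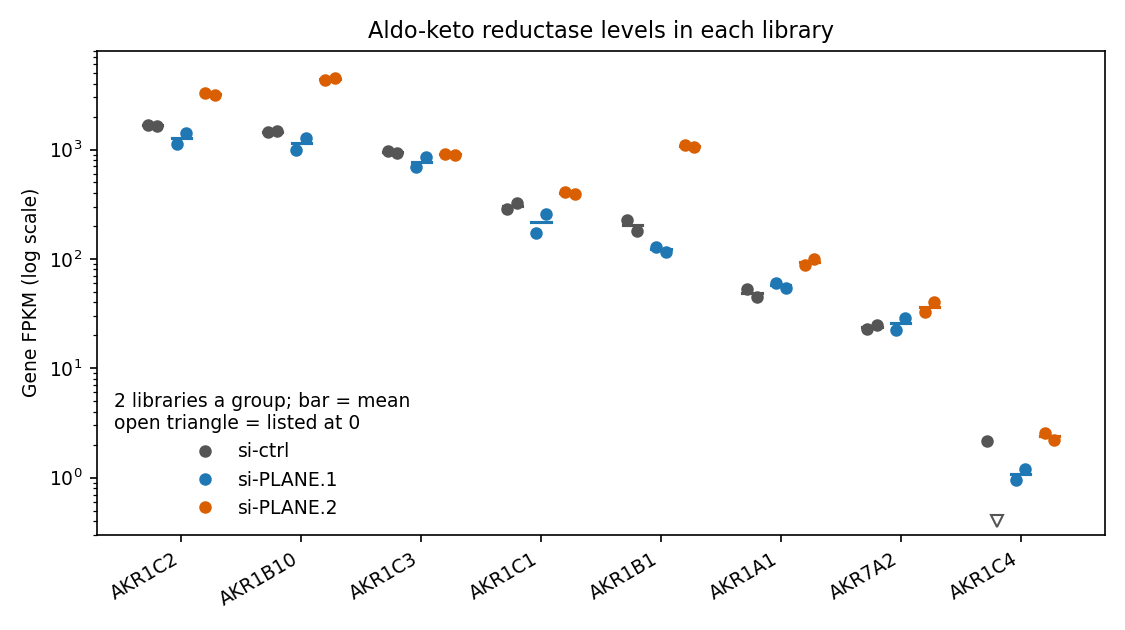
Gene FPKM (log scale) of the 8 aldo-keto reductases in each of the 6 libraries, with 2 libraries a group and a bar at the group mean. AKR1B1 sat at 1111 and 1046 FPKM in si-PLANE.2, above all other libraries, while AKR1C3 sat at 916 and 899 FPKM, within the range of the other libraries. AKR1C4 in si-ctrl replicate 2 is listed at 0 and drawn as an open triangle.

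The order changed between the groups. In si-PLANE.1 it was that of si-ctrl, with AKR1C2 (1130.0 and 1423 FPKM) and AKR1B10 (985 and 1285) overlapping. In si-PLANE.2 it was AKR1B10, AKR1C2, AKR1B1, AKR1C3, AKR1C1, AKR1A1, AKR7A2 and AKR1C4, again with no overlap between neighbours, so AKR1B10 stood at rank 1 and AKR1B1 moved from rank 5 to rank 3. By mean FPKM AKR1B1 was 408th of all genes in si-ctrl, 725th in si-PLANE.1 and 114th in si-PLANE.2. The 8 genes together took 0.643% and 0.584% of the summed FPKM in si-ctrl, 0.456% and 0.543% in si-PLANE.1, and 1.20% and 1.21% in si-PLANE.2.

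The first comparison asks which aldo-keto reductases changed with si-PLANE.1. None of the 8 passed the test (edgeR quasi-likelihood, adjusted p under 0.05, here and below Benjamini-Hochberg over all genes tested), beside a background of 0.0344% of 14535 genes. Their log2 fold changes were negative for 7 of 8, with a median of -0.44 beside 0.002 over all genes tested. At an unadjusted p under 0.05, 3 members were lower, beside 5.77% of all genes. DESeq2 gave 1 member call, AKR1B1, beside 125 of 14535 genes. With the replicate numbers as a block in edgeR, 5 members were called lower, beside 731 of 14535 genes. These numbers mark no stated batch.

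Aldose reductase AKR1B1 was at 129.5 and 116 FPKM in si-PLANE.1 against 229 and 179 in si-ctrl. Both si-PLANE.1 libraries were below both si-ctrl libraries, and the log2 fold change was -0.80 ± 0.15 (SE, n = 2 against 2, unadjusted p = 0.000666, adjusted p = 0.242 by edgeR). With DESeq2 its log2 fold change of -0.80 had an adjusted p of 0.000621, and over the 14 alternatives the adjusted p ran from 1.35e-09 to 0.776.

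The steroid and retinal reductases lay close together. With si-PLANE.1 the log2 fold changes were -0.51 ± 0.17 for AKR1C1, -0.49 ± 0.20 for AKR1B10, -0.47 ± 0.21 for AKR1C2 and -0.41 ± 0.17 for AKR1C3 (SE, adjusted p of 0.408 to 0.485 by edgeR). In each of these 4 genes si-PLANE.1 replicate 2 stood 0.35 to 0.44 log2 units above si-PLANE.1 replicate 1 and thus nearer to si-ctrl. AKR1A1 (0.16 ± 0.14), AKR7A2 (-0.01 ± 0.17) and AKR1C4 (-0.01 ± 1.14, SE) had adjusted p of 0.715 to 0.998 by edgeR. In counts scaled for depth, 5 members were lower with no overlap between the groups, beside 21.6% of all genes, and 1, AKR1A1, was higher, beside 20.9%.

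The next comparison asks the same of si-PLANE.2. In the count test 7 of 8 members rose, AKR1C4 did not pass, and 0 fell. AKR1C3, which rose by this test, was slightly lower than in si-ctrl on the FPKM scale. The background was 31.8% of 14168 genes higher and 32.3% lower, so a call in itself was common in this comparison. In counts scaled for depth all 8 were higher with no overlap, beside 40.9% of all genes. The members' median log2 fold change was 1.02 beside -0.03 over all genes tested.

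AKR1B1 rose most, from 229 and 179 FPKM in si-ctrl to 1111 and 1046 in si-PLANE.2. Its log2 fold change was 2.30 ± 0.14 (SE, n = 2 against 2, adjusted p = 1.35e-05 by edgeR), larger than that of 97.2% of the genes tested. AKR1B10 went from 1444 and 1472 FPKM to 4365 and 4542, at a log2 fold change of 1.81 ± 0.11 (SE, adjusted p = 1.63e-05 by edgeR), above 95.2% of the genes. In both aldose reductase-like genes the groups were far apart relative to the spread within them.

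Among the AKR1C genes the change was smaller. AKR1C2 was at 3286 and 3156 FPKM in si-PLANE.2 against 1670.0 and 1649 in si-ctrl, with a log2 fold change of 0.74 ± 0.11 (SE, adjusted p = 0.000710 by edgeR). AKR1C1 was at 407 and 393 FPKM against 286 and 324, with a log2 fold change of 0.95 ± 0.10 (SE, adjusted p = 0.000112 by edgeR). On the log2(FPKM + 1) scale the order of these genes was reversed. There AKR1C1 was at 0.39 (adjusted p = 0.0222 by limma) and AKR1C2 at 0.96 (adjusted p = 0.000880 by limma). AKR1C3 was at 916 and 899 FPKM against 974 and 938. It thus stood slightly lower per length in si-PLANE.2, while its counts gave a log2 fold change of 0.39 ± 0.10 (SE, adjusted p = 0.0110 by edgeR). With limma on log2(FPKM + 1) the AKR1C3 value was -0.07 (adjusted p = 0.515 by limma), on a scale on which the median of all genes was -0.22, so AKR1C3 lay 0.15 above that median. The count test also lost AKR1C3 without either si-PLANE.2 library (adjusted p = 0.144 and 0.0977 by edgeR). For AKR1C4, at 2.54 and 2.23 FPKM, the adjusted p was 0.241 by edgeR.

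The aldehyde reductases of low level rose too. AKR1A1 was at 88.7 and 99.4 FPKM against 53.0 and 44.8 in si-ctrl, with a log2 fold change of 1.09 ± 0.11 (SE, adjusted p = 0.000104 by edgeR). AKR7A2 was at 32.8 and 40.6 FPKM against 22.7 and 24.9, with a log2 fold change of 0.82 ± 0.14 (SE, adjusted p = 0.00142 by edgeR). In neither gene did the groups overlap.

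Summing the AKR1C genes removes part of the effect of how reads were divided among them, though not where reads pass between transcripts of unequal length. The sum was 2932 and 2910 FPKM in si-ctrl, 2001 and 2532 in si-PLANE.1, and 4612 and 4450 in si-PLANE.2. Within this sum AKR1C2 took 57.0% and 56.7% in si-ctrl, 56.5% and 56.2% in si-PLANE.1, and 71.3% and 70.9% in si-PLANE.2. The share of AKR1C3 was 33.2% and 32.2% in si-ctrl, 34.8% and 33.5% in si-PLANE.1, and 19.9% and 20.2% in si-PLANE.2, while AKR1C1 stayed at 8.66% to 11.1% in all libraries.

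The contrast between the siRNAs was tested directly in 1 fit of all 6 libraries. By this fit 7 of 8 members were higher in si-PLANE.2 than in si-PLANE.1, beside 31.1% of 14440 genes. AKR1C3, 1 of the 7, did not pass on the FPKM scale (0.24, adjusted p = 0.161 by limma). The log2 fold change was 3.10 ± 0.15 (SE, adjusted p = 1.56e-06 by edgeR) for AKR1B1, 2.31 ± 0.19 for AKR1B10, 1.47 ± 0.15 for AKR1C1 and 1.22 ± 0.17 for AKR1C2. AKR1A1 (0.94 ± 0.11), AKR7A2 (0.83 ± 0.17) and AKR1C3 (0.80 ± 0.15) had smaller differences, and AKR1C4 had an adjusted p of 0.221 by edgeR. In FPKM both si-PLANE.2 libraries lay above both si-PLANE.1 libraries for all 8 genes. The share of all genes for which this held in FPKM was not computed, so how particular it is cannot be judged. The plot of fold changes sets the 3 contrasts side by side. The comparisons with si-ctrl share their control libraries and are not independent of each other.

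**Figure D2:**
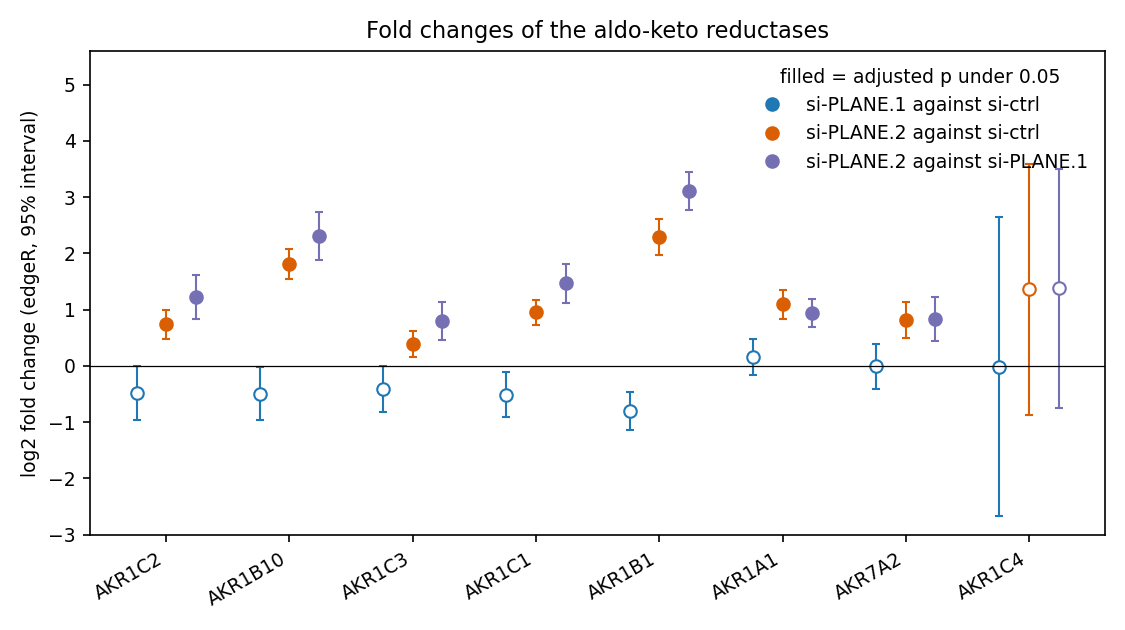
Log2 fold change of each aldo-keto reductase by edgeR, with 95% intervals, for si-PLANE.1 and si-PLANE.2 against si-ctrl and for si-PLANE.2 against si-PLANE.1, with filled points at an adjusted p under 0.05. With si-PLANE.1 the points lie between -0.80 and 0.16 and none is filled, while with si-PLANE.2 all but AKR1C4 are filled and above 0. AKR1C3, filled at 0.39, is at -0.07 on the log2(FPKM + 1) scale.

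Fold changes with si-PLANE.2 moved with transcript length. When all tested genes were split into 4 equal parts by mean transcript length, the median log2 fold change was 0.40 in the shortest (up to 1346 bases), 0.25 in the next (to 2045), -0.05 in the part after that and -0.54 in the longest. The share called higher was 43.6%, 40.8%, 29.6% and 13.4% in the same order. All 8 members, at mean lengths of 1097 to 1664 bases, were in the shorter 2 of these parts. AKR1B1, AKR1B10, AKR1A1, AKR1C1, AKR7A2 and AKR1C2 exceeded the median of their part in this comparison, whereas AKR1C3 at 0.39 was nearer to it. With si-PLANE.1 the medians of the 4 parts lay between -0.04 and 0.04. The part of length in the members' changes was not tested beyond an added fit with mean transcript length as an offset, chosen after seeing the data. It left 6 of 8 members higher with si-PLANE.2, beside 4200 of 14168 genes higher and 4075 lower in that fit. The log2 fold changes were 2.61 for AKR1B1, 1.87 for AKR1B10 and 1.15 for AKR1C2, and AKR1C3 was at 0.23 (adjusted p = 0.103 by edgeR).

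**Figure D3:**
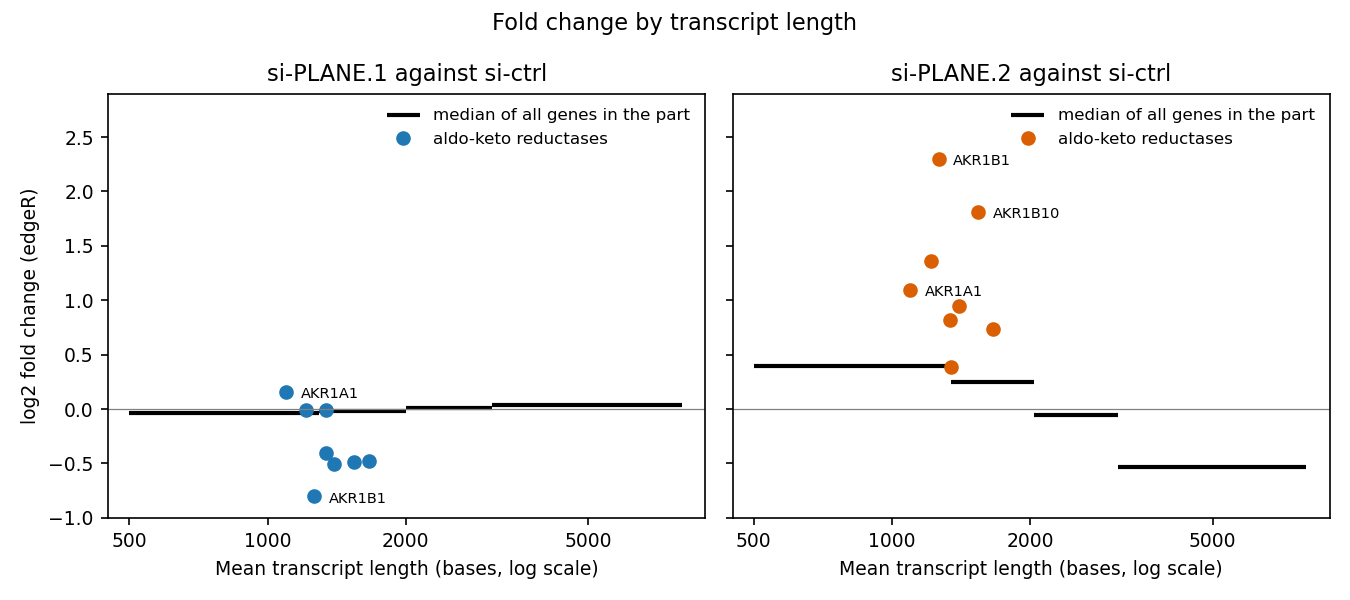
Log2 fold change by edgeR against mean transcript length (log scale) with si-PLANE.1 and si-PLANE.2 against si-ctrl. Bars give the median of all tested genes in each of 4 equal parts by length, cut at the edges of the plot, and points are the 8 members. With si-PLANE.2 the bars descend from 0.40 to -0.54 and the members lie over the 2 shorter parts at 0.39 to 2.30, with AKR1C3 the lowest and at -0.07 on the log2(FPKM + 1) scale.

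At the transcript level the same reads were divided among the listed transcripts of each gene. Of the 67 member transcripts, 44 passed the minimum of 0.5 FPKM in the si-PLANE.1 comparison, and edgeR called 0 of them, as it did for 0 of all 57625 transcripts. At an unadjusted p under 0.05 there were 4 member transcripts, all lower, beside 2.45% of all transcripts lower. DESeq2 called 1, the main AKR1B1 transcript, beside 397 of 57625 transcripts. With si-PLANE.2, 47 passed the minimum and edgeR called 16 higher and 5 lower, beside 12.9% and 12.7% of 56791 transcripts. Without either si-PLANE.2 library edgeR called 0 member transcripts and also 0 of all 57622 or 57194 transcripts tested, while log2 fold changes such as those of the main AKR1B1 transcript (2.23 and 2.36) and the main AKR1B10 transcript (1.96 and 1.95) stayed close to the values with both (2.26 and 1.92).

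In AKR1B1 a transcript near 0 elsewhere was found at a high level in si-PLANE.2. The main transcript ENST00000285930 was at 199.8 and 149 FPKM with si-ctrl, at most 109.6 in si-PLANE.1, and 699.9 and 658 in si-PLANE.2, with no overlap between the 3 groups. ENST00000489022, a short transcript of 577 bases with no defined coding sequence, was at 0 and 0.38 FPKM with si-ctrl, 0 in both si-PLANE.1 libraries, and 373 and 355 in si-PLANE.2. It made up 33.6% and 33.9% of AKR1B1 in si-PLANE.2. Summed over the libraries of a group, 4899 counts stood against 2 in si-ctrl, a depth-scaled ratio of 1750.3 with a 95% Clopper-Pearson interval of 484 to 14457 that covers counting error only. This transcript has 5 exons at chr7:134133807-134143881, and 92.2% of its bases lie in exons of the main transcript, in the first 39.1% of it. None of its splice junctions is its own among the annotated AKR1B1 transcripts, so reads across them also match other transcripts of the gene.

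In AKR1C3 the main transcript was lower and another higher. ENST00000439082, the larger in all libraries, was at 871 and 851 FPKM with si-ctrl, 624 and 762 in si-PLANE.1, and 484 and 511 in si-PLANE.2, where it fell by 0.49 ± 0.08 on the log2 scale (SE, adjusted p = 0.0255 by edgeR). ENST00000380554 was at 66.1 and 47.1 FPKM with si-ctrl, 36.5 and 43.2 in si-PLANE.1, and 414 and 370 in si-PLANE.2, where it rose by 3.09 ± 0.21 (SE, adjusted p = 0.00682 by edgeR). Its share of AKR1C3 thus went from 6.78% and 5.02% to 45.2% and 41.1%. Both are annotated with 969 coding bases. In the annotation 91.4% of the bases of ENST00000439082 lie in exons of ENST00000380554, within the span from 9.78% to 84.6% of it, and the rest lie outside those exons. The deposited lengths of 1262 and 1807 bases differ from the 972 and 1186 bases of this annotation, so the models behind the values were not the same ones.

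In AKR1C1 and AKR1C2 transcripts of low share in si-ctrl were higher in si-PLANE.2. ENST00000434459 of AKR1C1 was at 22.4 and 30.6 FPKM with si-ctrl, 7.35 and 19.2 in si-PLANE.1, and 192 and 187 in si-PLANE.2 (log2 fold change 3.12 ± 0.20, adjusted p = 0.00679 by edgeR), while the main transcript ENST00000442997 was at 182 and 221, 103 and 168, and 186 and 179 FPKM. ENST00000421196 of AKR1C2, which skips 1 exon of the reference transcript, was at 45.1 and 45.5 FPKM with the control siRNA, 36.0 and 34.3 with si-PLANE.1, and 305 and 292 with si-PLANE.2 (log2 fold change 3.01 ± 0.10, adjusted p = 0.00529 by edgeR). ENST00000604507 of AKR1C2, a shortened transcript of 745 bases, was at 85.5 and 0 FPKM with si-ctrl, 68.5 and 86.6 in si-PLANE.1, and 982 and 913 in si-PLANE.2. The si-ctrl libraries differed so widely in it that the adjusted p was 0.154 by edgeR. ENST00000407674, the main AKR1C2 transcript, rose by 0.80 ± 0.10 (SE, adjusted p = 0.0140 by edgeR). ENST00000407674 and ENST00000434459 are not in the GRCh37 annotation used here, so their exons were not compared.

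**Figure D4:**
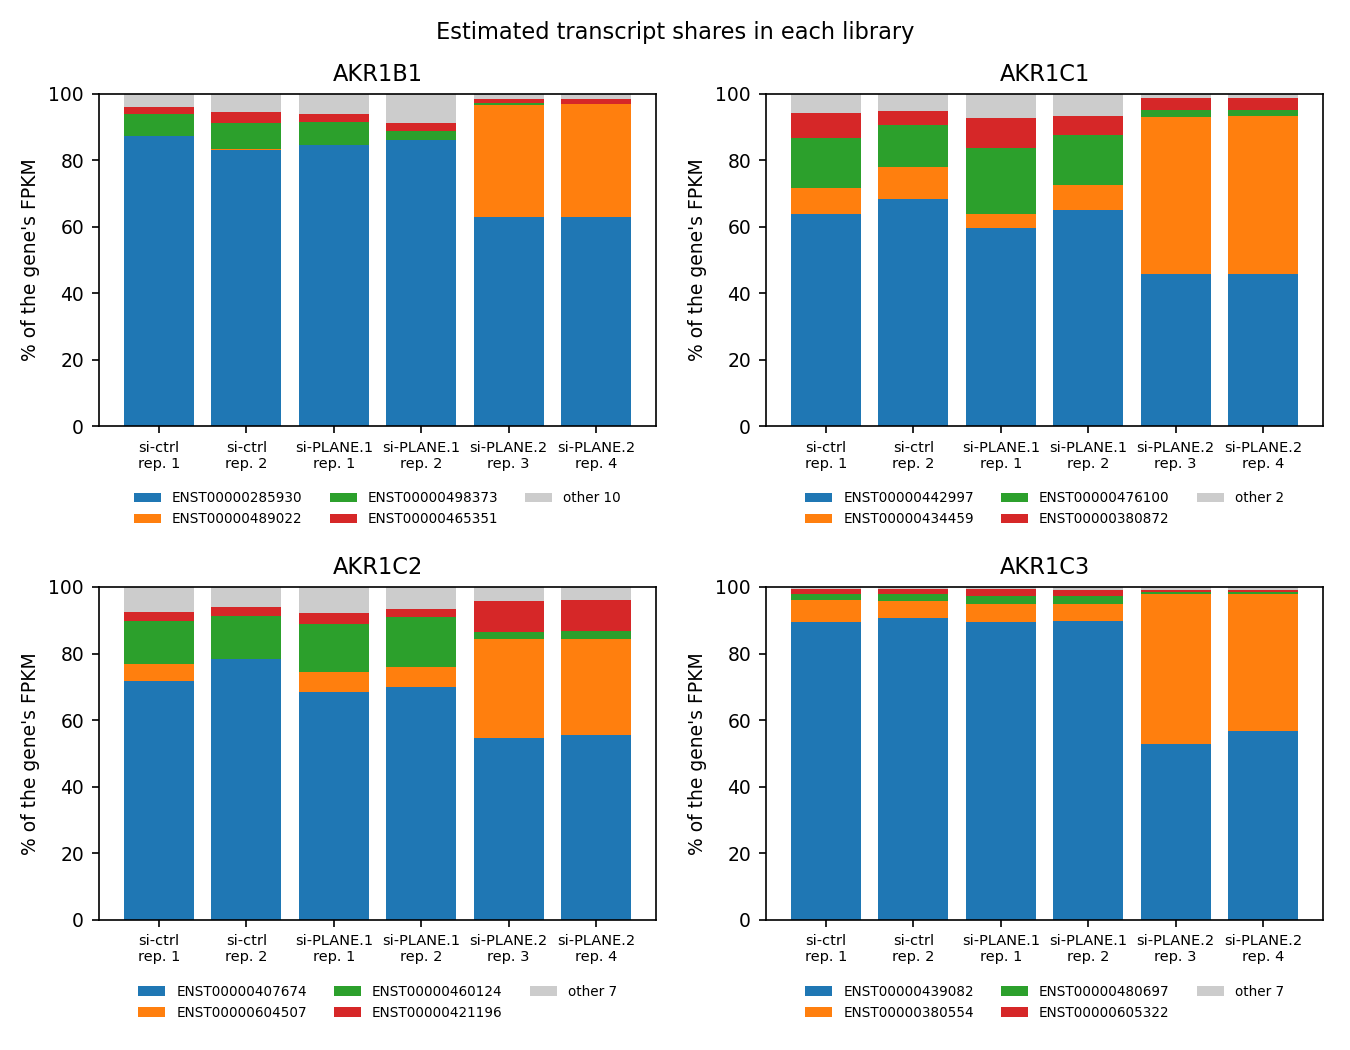
Share of each gene's FPKM taken by its 4 most abundant transcripts and by the others, in each library, for AKR1B1, AKR1C1, AKR1C2 and AKR1C3. With si-ctrl and with si-PLANE.1 each gene has 1 main transcript at 59.5% to 90.8%, and with si-PLANE.2 another transcript takes 28.9% to 47.6%.

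Of the annotated member transcripts that keep intron sequence, 7 were called higher with si-PLANE.2, 4 lower and 15 neither. Of the 5 member transcripts called lower with si-PLANE.2, 4 hold bases from introns of the reference transcript (428 to 1272), beside 7 of 14 annotated transcripts called higher (16 to 598) and 15 of 26 not called (21 to 600). Of 10 tested transcripts annotated as retaining an intron, 2 were called lower and 1 higher, beside 12.7% and 12.9% of all transcripts tested. ENST00000460124 of AKR1C2, with 1272 such bases, was at 217 and 213 FPKM with si-ctrl, 163 and 211 in si-PLANE.1, and 73.9 and 77.1 in si-PLANE.2, where it fell by 1.23 ± 0.09 on the log2 scale (SE, adjusted p = 0.00713 by edgeR). ENST00000476100 and ENST00000477661 of AKR1C1 fell by 2.13 and 1.75 on the log2 scale and ENST00000480697 of AKR1C3 fell by 1.67 (adjusted p of 0.0106 to 0.0246 by edgeR). These AKR1C1 transcripts are annotated with no defined coding sequence and not as retaining an intron. Transcripts annotated as retaining an intron made up 13.0% and 12.9% of AKR1C2 in si-ctrl, 14.4% and 14.8% in si-PLANE.1, and 2.25% and 2.44% in si-PLANE.2. The same share went from 12.3% and 16.5% to 3.13% and 3.11% in AKR1B1, from 3.84% and 4.201% to 1.90% and 2.02% in AKR1C3, and from 3.26% and 2.93% to 0.549% and 0.345% in AKR7A2. In AKR1B1 only the share was lower, since the summed FPKM of these transcripts was 28.3 and 29.5 in si-ctrl and 34.8 and 32.5 in si-PLANE.2, and ENST00000465351, 1 of them, rose by 1.73 ± 0.24 (SE, adjusted p = 0.0169 by edgeR). The AKR7A2 share rests on 1 transcript, ENST00000492217, with 7.49 and 7.69 counts in si-ctrl and 2.78 and 1.98 in si-PLANE.2. It was below the minimum level for the test with si-PLANE.2. The low histone levels of the si-PLANE.2 libraries move with these shares, and their part in them was not tested.

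AKR1B10 and AKR7A2 had 1 dominant transcript in every library. ENST00000359579 took 89.6% to 96.2% of AKR1B10 in all libraries and rose by 1.92 ± 0.09 with si-PLANE.2 (SE, adjusted p = 0.00553 by edgeR), and the other 3 AKR1B10 transcripts rose as well. ENST00000235835 took 91.2% to 97.7% of AKR7A2. In AKR1A1 the main transcript ENST00000351829 was at 34.5 and 29.7 FPKM with the control siRNA, 37.8 and 35.1 with si-PLANE.1, and 38.8 and 40.6 with si-PLANE.2, so that its share went from 65.2% and 66.3% to 43.7% and 40.8% (log2 fold change 0.61 ± 0.14, adjusted p = 0.0482 by edgeR). The shorter protein-coding transcript ENST00000434299 of AKR1A1 was at 8.19 and 5.39 FPKM with the control siRNA, 2.72 and 4.36 with si-PLANE.1, and 19.9 and 22.7 with si-PLANE.2.

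Other NRF2 targets were read from the same fits as a list of 36 genes outside the AKR family. With si-PLANE.1, 0 of 35 tested passed the test by edgeR. Their log2 fold changes were negative for 31, with a median of -0.38. At an unadjusted p under 0.05, 17 were lower and 1 higher, beside 5.77% of all genes lower. With si-PLANE.2, 22 of 36 were higher and 1 lower, beside 31.8% and 32.3% of all genes, with a median of 0.64. OSGIN1 (2.77), SLC3A2 (2.33), which carries a cystine transporter chain, TRIM16 (1.52) and the peroxiredoxin PRDX1 (1.50) had the largest log2 fold changes among them. Housekeeping genes moved in part the same way with si-PLANE.2, with 9 of 15 higher, 1 lower and a median of 0.66, and with si-PLANE.1 their median was -0.26.

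Of 10 NRF2 regulators, 5 were higher and 2 lower with si-PLANE.2, beside 31.8% and 32.3% of all genes. NFE2L2, which encodes NRF2, fell by 0.87 ± 0.11 on the log2 scale (SE, adjusted p = 0.000281 by edgeR) and its competitor BACH1 fell by 0.39. Its inhibitor KEAP1 rose by 1.91 ± 0.10 and SQSTM1, which binds KEAP1, by 2.05 ± 0.11 (SE, adjusted p of 8.86e-06 and 9.26e-06 by edgeR). The partners MAFK (1.00) and MAFG (0.86) and the ligase subunit RBX1 (0.78) were also higher, while MAFF, CUL3 and NFE2L1 did not pass. With si-PLANE.1 none of the 10 passed, and 2 were lower at an unadjusted p under 0.05, NFE2L2 (-0.45) and SQSTM1 (-0.42), beside 5.77% of all genes.

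The core of the antioxidant response element that NRF2 binds, TGACNNNGC, was searched on both strands of the RefSeq promoters (GRCh38.p14, 250 bases before to 50 after each start), which held 7 of the 8 members. AKR1B10 had no entry. Sequence further from the starts was not searched, so a match there would be missed. Of 35116 promoters 13.3% held the core, and among the members it was found only in AKR7A2, with 3 matches that do not overlap. They lie in the 100 bases from 180 to 81 before the start, chr1:19312225-19312324 on the minus strand, with the matches in capitals.
AKR7A2: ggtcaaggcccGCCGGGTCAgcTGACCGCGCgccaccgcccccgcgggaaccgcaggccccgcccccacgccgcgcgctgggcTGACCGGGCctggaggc

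The other AKR superfamily genes were low. Of 14 listed, 12 were in the tables and 6 passed the minimum level. With si-PLANE.1 none of the 6 passed the test by edgeR, and 1, KCNAB2, was lower at an unadjusted p under 0.05, beside 5.77% of all genes. With si-PLANE.2, KCNAB2, a potassium channel beta subunit, rose by 0.93 ± 0.13 and AKR1B15 by 0.67 ± 0.14, while AKR1E2 fell by 0.53 ± 0.14 (log2, SE, adjusted p of 0.000662, 0.00375 and 0.0109 by edgeR). In FPKM, which corrects for length, KCNAB2 overlapped between the groups. It was at 9.63 and 11.44 in si-ctrl and at 12.47 and 11.24 in si-PLANE.2. AKR1D1 was listed at 0 in all libraries.

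Enzymes that share substrates with the members were mixed, beside 31.8% of all genes higher and 32.3% lower with si-PLANE.2. Among carbonyl reductases of the short-chain dehydrogenase family 8 of 15 were higher and 2 lower with si-PLANE.2, with CBR3 (1.60), DHRS4 (1.58) and CBR1 (1.57) higher and CBR4 (-1.59) lower. Among steroid enzymes 9 of 13 were higher and 1 lower, with HSD17B1 (2.49), which makes estradiol, HSD17B10 (1.20) and HSD17B14 (1.05) higher and HSD11B2 (-2.68), which inactivates cortisol, lower. Of prostaglandin enzymes 5 of 10 were higher and 4 lower. PTGES, which makes prostaglandin E, rose by 1.65 and TBXAS1, the thromboxane synthase, by 2.32, while PTGDS fell by 3.27, PTGR2 by 1.16 and HPGD, which breaks prostaglandins down, by 0.60 on the log2 scale.

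Of 9 tested genes listed for the polyol and fructose pathway, 5 were higher and 4 lower with si-PLANE.2, beside 31.8% and 32.3% of all genes. SORD, which turns the sorbitol made by AKR1B1 into fructose, rose by 0.76 ± 0.10 and the ketohexokinase KHK by 1.38 ± 0.14 (SE, adjusted p of 0.000402 and 0.000111 by edgeR). The hexokinases HK1 (-0.70) and HK2 (-1.51), which compete for glucose, were lower. AMDHD1, which was also lower, is an enzyme of histidine breakdown. With si-PLANE.1 none of these 4 lists had a gene past the test by edgeR, while 1 gene in each of the 3 lists other than steroid enzymes was lower at an unadjusted p under 0.05, and 1 steroid enzyme was higher. Over all genes 5.77% were lower at that threshold.

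For the 3 most abundant members, the genes with the most similar profile over the 6 libraries were found by the root mean square difference of centred log2 counts scaled for depth, among 8026 genes of at least 10 FPKM. For AKR1B10 these were YBX1 (0.07 log2 units), MRPL53 (0.08) and UQCRH (0.09). For AKR1C2 they were RPS16 (0.05), CREG1 (0.06) and CDCA4 (0.06), and for AKR1C3 SPAG5 (0.03), MLLT11 (0.04) and C6orf120 (0.05). With 3 groups and 2 libraries each, this measure mostly ranks genes by their group means.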

How the data were processed

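The authors deposited expected counts per transcript without normalization, and FPKM normalized for transcript length and depth, in 1 table per siRNA with the same si-ctrl values. A deposited column gives each transcript's length. The submitters' processing notes name Trimmomatic 0.30, HISAT2 2.0.1, HTSeq 0.6.1, DESeq and hg19. The tool behind the expected counts is not given in the sources used here. The study's methods name both poly(A) selection and rRNA removal without assigning them to libraries.

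Transcript values were summed per gene, and 33692 of 34957 gene identifiers matched a symbol. Transcripts without a gene identifier (16723 of 180253, 3.03% to 3.62% of counts) entered only the transcript fits. Rounded counts were tested with edgeR 4.0.16 (TMM, glmQLFit, glmQLFTest, R 4.3.3) for features with a mean of at least 0.5 FPKM, per siRNA against si-ctrl and, between siRNAs, in 1 fit of 6 libraries. Each standard error is the absolute log2 fold change over the root of F. Scripts were tested on simulated data. Alternatives were DESeq2 1.42.0, limma 3.58.1 on log2(FPKM + 1) and log2(FPKM + 0.1), other scalings and filters, all 6 libraries in 1 fit, a replicate block, leaving out each library, and a length offset. Coordinates and coding sequences are from GRCh37 with the GENCODE annotation, in which 65 of 67 member transcripts were found, 55 with the deposited length. Transcripts of the members at a mean of at least 0.5 FPKM, list genes past the test (at most 4 per list and comparison in longer lists) and the 3 nearest profiles were named, and the marker genes were added after their values were seen. The members and lists were chosen with earlier results of these data known, and sequences of the AKR proteins were not analysed here.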

Additional observations from a re-analysis of the deposited data

Results flagged for a closer look

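For 7 of the 8 genes the effects of the siRNAs differed by the direct contrast of si-PLANE.2 with si-PLANE.1 (edgeR, adjusted p under 0.05, higher in 2 of 2 si-PLANE.2 libraries each). Such a difference was common, with 9305 of 14440 genes called in this contrast and 31.1% called higher. The log2 difference was 3.10 for AKR1B1 (adjusted p = 1.56e-06 by edgeR), 2.31 for AKR1B10 (1.37e-05), 1.47 for AKR1C1 (5.34e-05), 1.22 for AKR1C2 (0.000302), 0.94 for AKR1A1 (9.39e-05), 0.83 for AKR7A2 (0.00238) and 0.80 for AKR1C3 (0.00136). On the FPKM scale AKR1C3 did not pass (0.24, adjusted p = 0.161 by limma). The si-PLANE.2 libraries also stood apart in histone levels and in the relation of fold change to transcript length, and the part of these in the difference was not tested. Groups of 2 libraries are too small for a search for single outlying libraries.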

How the results depend on the processing

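No paired analysis was possible for si-PLANE.2 because its libraries share no replicate number with the other groups. The numbers that si-ctrl and si-PLANE.1 share mark no stated batch, and the replicate 1 minus replicate 2 differences of the 2 groups correlated at r = 0.38 over 14535 genes. With a replicate block 5 members were lower with si-PLANE.1 (AKR1B1, AKR1B10, AKR1C1, AKR1C2 and AKR1C3) against 0 without it, calls over all genes went from 5 to 1225, and the block gave 0 member transcripts.

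The count with si-PLANE.1 was 1 by DESeq2, for genes and for transcripts, and 0 under the alternatives other than the block, where over all genes DESeq2 called 125 and the fit of 6 libraries 17. With si-PLANE.2 the gene count ran from 6 to 8 and the transcript count from 17 to 27, but 0 without si-PLANE.2 replicate 3 or replicate 4, fits that called 0 of all transcripts tested (19034 and 19278 at an unadjusted p under 0.05), so leaving out 1 library gave 0 to 22. Between the siRNAs it ran from 6 to 8.

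On the log2 scale the summed AKR1C level with si-PLANE.2 was 0.63 in FPKM, 0.47 in TPM and 0.69 in TMM-scaled CPM. With si-PLANE.1 it was -0.37, and -0.55 to -0.21 leaving out 1 library, with -0.21 without si-PLANE.1 replicate 1 and -0.55 without replicate 2.

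Directions reversed for values that did not pass the test, and for AKR1C3 with si-PLANE.2, at -0.075 by limma with either pseudocount (adjusted p = 0.515 and 0.504), where the share of called genes that were higher was 37.1% and 36.9% against 49.7%. With si-PLANE.1, AKR7A2 became 0.020 by upper quartile, 0.0046 with a minimum of 2 FPKM, 0.10 by limma with either pseudocount and 0.025 with the length offset, which was chosen after seeing the data, and ran from -0.21 to 0.17 leaving out 1 library. AKR1C4, which rests on 0 to 51 counts per library, became 0.020 by upper quartile, 0.22 and 1.30 by limma and 0.34 with the block, and ran from -1.01 to 6.64 leaving out 1 library, the highest without si-ctrl replicate 1, a value set by the prior count. Its transcript ENST00000263126 became 0.058 and 0.96 by limma and 0.84 with the block, from -1.35 to 6.31 leaving out 1 library. ENST00000235835 of AKR7A2 ran from -0.18 to 0.17. ENST00000442997 of AKR1C1 with si-PLANE.2 became -0.14 by limma with either pseudocount and ran from -0.015 to 0.29. In all, 460 of 523 fold changes under the alternatives kept their direction and side of the threshold.

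Low counts limit AKR1C4 and the transcripts of low level, and each group had 2 libraries.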
